A study of Mus musculus with 14 samples.

Results

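H3K4me1 and H3K27ac were compared within embryonic stem cells (ESCs) as 2 of the 14 samples of the series, 1 ChIP-BS-seq library per mark, chosen by their sample labels. In ChIP-BS-seq, nucleosomes that carry a histone mark are pulled down with its antibody and their DNA is sequenced after bisulfite treatment, so 5-methylcytosine (5mC) is read in DNA enriched for the mark, with some background DNA beside it. Both libraries came from R1, a male mouse ESC line at passages 20 to 23, kept for 2 days without 2i in serum medium with 1000 U/mL LIF. The 2i inhibitors withdrawn were PD0325901 (1 µM, against MEK/ERK) and CHIR99021 (3 µM, against GSK3). R1 is a single cell line, so nothing here measures variation between lines. Cells of the same line treated for 4 days with 1 µM retinoic acid without LIF, with 1 library per mark, and cells driven for 9 days toward extraembryonic endoderm (XEN) with retinoic acid at 0.1 µM together with Activin A, with 2 replicate libraries per label, were used only for comparison. For XEN, the mark in each deposited file name is opposite to that in the sample label, so those libraries are described by the mark they were "labelled" with.

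H3K4me1 is a mark of primed and active enhancers and of the DNA that flanks active promoters, whereas H3K27ac marks enhancers and promoters that are active. CpG methylation is low at active regulatory DNA and high over most of the remaining genome. 2i medium lowers DNA methylation in ESCs, and the cells regain it after the inhibitors are removed. A bisulfite read of DNA bound by each mark can therefore show whether the same locus carries more 5mC on one mark than on the other, while the count of CpGs shows where each mark lies.

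The H3K4me1 library held 58803653 CpG counts and the H3K27ac library 32588942. Of these, 38.6% were methylated for H3K4me1 and 33.0% for H3K27ac. A bin of 200 bp reached 30 counts at 578342 places for H3K4me1 and at 156568 for H3K27ac, so H3K27ac limited each comparison of the marks within a bin. On mitochondrial DNA, which was used as an unmethylated reference, 27 of 7053 counts (0.383%, exact 95% interval 0.252 to 0.556%) were methylated for H3K4me1 and 19 of 535 (3.55%, 2.15 to 5.49%) for H3K27ac. The libraries thus differed on this reference by more than the marks differed on average within a bin (1.05 points, below), and some classes of nuclear bins had less 5mC on H3K27ac (1.95% in one of them, below) than mitochondrial DNA. The part of this difference in the comparisons of the marks was not tested. All intervals given are exact 95% Clopper-Pearson intervals, which account for counting error alone. With 1 library per mark there is no spread between replicates in ESCs, and the differences of pooled values below carry no test.

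Almost all strong H3K27ac peaks lay on H3K4me1, but many H3K4me1 peaks had no H3K27ac. Of 100469 H3K27ac peaks, 84945 (84.5%) overlapped an H3K4me1 peak by at least 1 bp and 15524 (15.5%) stood alone. Of 145840 H3K4me1 peaks, 71419 (49.0%) overlapped H3K27ac and 74421 (51.0%) stood alone. In base pairs, 231 Mb were covered by peaks of both marks, 239 Mb by H3K4me1 alone and 44.8 Mb by H3K27ac alone. The shared DNA was 83.8% of the H3K27ac peak length and 49.1% of the H3K4me1 peak length.

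Overlap followed peak score, which here only ranks peaks within a list. In the highest-scoring decile of H3K27ac peaks 99.9% overlapped H3K4me1, and in the lowest-scoring decile 64.0% did. For H3K4me1 the same shares were 98.8% and 16.0%. Lone peaks were also weaker, with a median score of 10.5 against 20.8 for overlapping H3K27ac peaks, and of 13.6 against 45.8 for H3K4me1.

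Peaks of both lists were wider where the marks met. Overlapping H3K4me1 peaks had a median width of 3022 bp (quartiles 1818 and 5370 bp) and lone ones of 1502 bp (1000 and 2003 bp). Overlapping H3K27ac peaks had a median of 1858 bp (1259 and 3207 bp) and lone ones of 1000 bp (1000 and 1529 bp). The value of 1000 bp is the smallest width in the H3K27ac list, and 52.2% of lone H3K27ac peaks had exactly that width, against 20.6% of overlapping ones. Widths over 5000 bp were found in 27.5% of overlapping and 1.40% of lone H3K4me1 peaks, and in 12.6% and 0.251% of the corresponding H3K27ac peaks. A wider peak has more chance to meet another peak, so width and overlap are not independent measures.

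**Figure D1:**
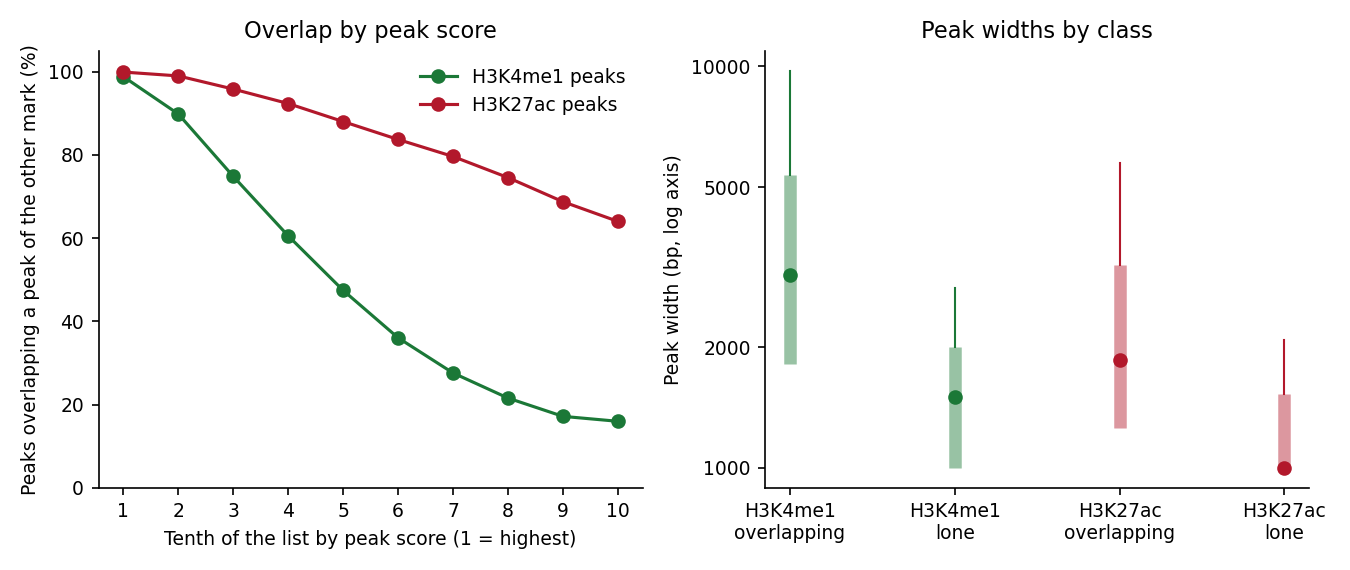
Left, the share of H3K4me1 (green) and H3K27ac (red) peaks that overlapped a peak of the other mark, by decile of peak score from the highest (1) to the lowest (10). Right, peak width in bp on a log axis for overlapping and lone peaks of each mark, with the median (point), quartiles (thick bar) and 90th percentile (thin line). Overlap fell from 98.8 to 16.0% for H3K4me1 and from 99.9 to 64.0% for H3K27ac.

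In summed counts, each mark weighted by its own depth, the sign of the difference in 5mC between the marks depended on which peaks a bin lay in. In 250.1 Mb of bins in peaks of both marks, 30.3% of H3K4me1 counts and 20.7% of H3K27ac counts were methylated, so H3K4me1 was 9.55 percentage points higher. In 249 Mb of bins in an H3K4me1 peak only, the order was the opposite, with 42.7% for H3K4me1 and 48.1% for H3K27ac. Bins outside all peaks had the same order, with 57.6% and 61.3%. In 45.6 Mb of bins in an H3K27ac peak only, H3K4me1 had 49.1% and H3K27ac 13.1%. These signs were not stable, since with at least 30 counts in the library H3K4me1 was higher in all 4 classes (by 18.7, 24.5, 32.8 and 15.6 points in the order given), and with the H3K4me1 counts as weights for both marks H3K27ac was higher in all 4 (-0.46, -2.17, -3.08 and -2.22 points). The widest exact interval among these percentages was 49.0 to 49.2%, for H3K4me1 in H3K27ac-only bins.

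Bins with an H3K27ac peak only were of 3 kinds that differed widely. In 9900 H3K27ac peaks there was a gap between the first and the last H3K4me1 peak that each overlapped, with a median length of 732 bp. The H3K27ac-only bins in these gaps made up 6.54 Mb, or 0.248% of all bins, and held 11% of all H3K27ac counts but 0.302% of H3K4me1 counts. They were almost free of methylation on H3K27ac, at 1.95% (1.93 to 1.96%), while the few H3K4me1 counts there had 14.8% (14.6 to 15.0%). With the H3K27ac counts as weights for both marks, over bins with counts on each, the gaps had 2.29% on H3K27ac and 5.84% on H3K4me1. The other 14.9 Mb of H3K27ac-only bins in overlapping peaks had 44.9% on H3K27ac and 57.6% on H3K4me1. Where these bins had counts on both marks and the H3K27ac counts weighted both, the order turned, with 48.8% on H3K27ac and 47.4% on H3K4me1. Bins of lone H3K27ac peaks, 24.2 Mb, had 63.6% on H3K27ac and 60.9% on H3K4me1, each above its level outside all peaks. An unmethylated center with dense H3K27ac and H3K4me1 on either side is the textbook arrangement of active promoters, but no annotation of the build was used, and whether these gaps lie at promoters was not tested.

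**Figure D2:**
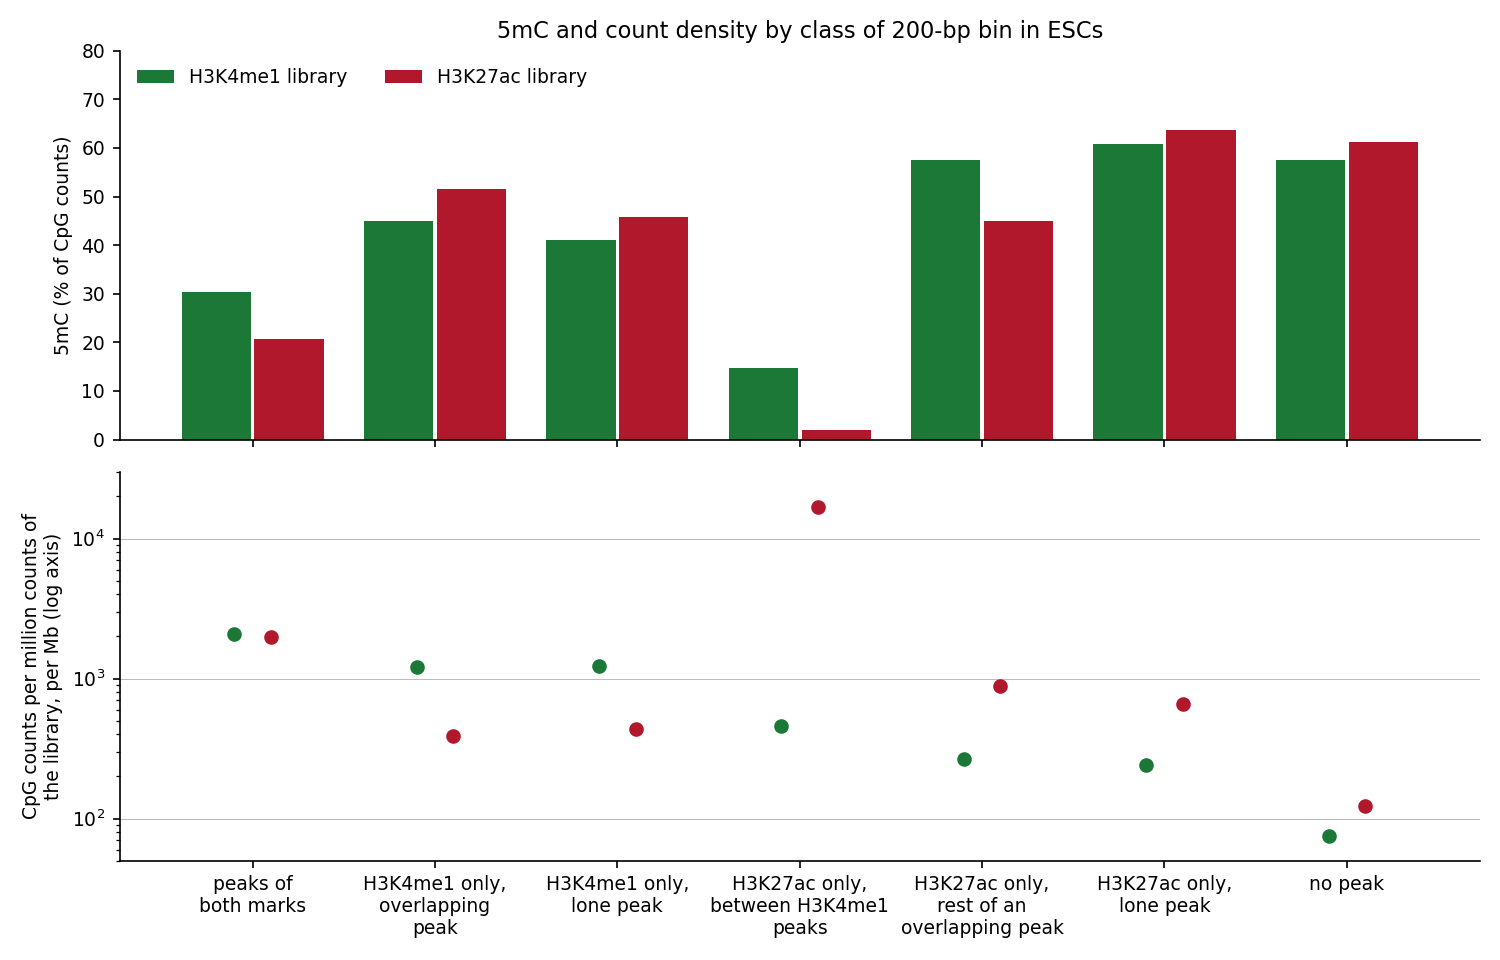
Top, 5mC as a percentage of CpG counts in the H3K4me1 (green) and H3K27ac (red) libraries of ESCs, by class of 200-bp bin, and bottom, the density of CpG counts per Mb scaled to the library total, on a log axis. H3K27ac-only bins between H3K4me1 peaks had 1.95% 5mC on H3K27ac at a scaled density of 16813, while bins of lone H3K27ac peaks had 63.6% at 656.

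Lone H3K27ac peaks were methylated whatever their score. Summed over peaks, 5mC on H3K27ac was 63.7% for the 6994 lone peaks with scores under 10 and 62.4% for the 122 with scores of at least 50. Among overlapping peaks it fell from 40.6% for scores under 10 to 13.7% for the 20409 peaks with scores of at least 50. On H3K4me1 the same overlapping peaks had 38.1% and 27.5%, so the difference (H3K4me1 minus H3K27ac) went from -2.48 to 13.8 points. These sums weight each mark by its own depth. Over the 67866 overlapping peaks of all scores with at least 30 counts on both marks, the median difference per peak was 1.71 points. H3K27ac was higher in 43.1% of them. Per peak, 6361 lone H3K27ac peaks had at least 30 H3K27ac counts, with a median 5mC of 69.1%, and only 2.37% of them were under 20%. Of 68204 overlapping H3K27ac peaks with that many counts, the median was 36.5% and 29.2% were under 20%.

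The highest-scoring peaks of each class show this contrast. The 3 highest-scoring H3K27ac peaks that overlapped H3K4me1 were chr11:8422539-8543085, chr11:3025264-3107949 and chr6:39337409-39407354 (build mm9), which were 120547, 82686 and 69946 bp wide. The first had 26.5% 5mC over 19867 H3K4me1 counts and 20.5% over 13507 H3K27ac counts. The second had 47.1% over 14222 and 41.4% over 13702 counts, and the third 20.2% over 9057 and 13.6% over 10952. In each of them H3K4me1 was higher in these sums, and the intervals, which hold counting error alone, did not overlap. Each mark was weighted by its own depth, and equal weights were not applied to single peaks. The intervals also narrow with depth, so their overlap cannot be compared between these peaks and the lone peaks below.

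Among lone H3K27ac peaks the highest scores were those of chr6:143311355-143318476, chr9:103570372-103575554 and chr6:71912056-71925514. Their 5mC on H3K27ac was 74.2% of 240 counts, 76.3% of 337 and 78.0% of 487. On H3K4me1 it was 58.8% of 51, 65.7% of 35 and 73.2% of 205, with intervals that overlapped those of H3K27ac. Among lone H3K4me1 peaks, chr15:76001946-76021758 had 33.4% on H3K4me1 (5580 counts) and 30.8% on H3K27ac (588 counts). The next, chr5:67483948-67494316, had 16.7% of 2973 and 13.2% of 326 counts. In chr2:152895462-152913553 the values were 44.8% of 1889 and 37.8% of 296 counts, and in these 3 peaks the intervals of the marks overlapped.

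By distance from the center of the nearest H3K27ac peak, both marks had less 5mC at the center than at 1, 5 or 10 kb. Over all H3K27ac peaks, H3K4me1 rose from 28.9% at the center to 36.1% at 1 kb and 40.7% at 5 kb, and H3K27ac from 18.4% to 26.3% and 34.6%. The lines met at 10 kb, at 43.7% for both. In summed counts this average joined sets of peaks with opposite differences. Around the 10061 highest-scoring peaks (the top decile, with tied scores), 5mC at the center was 21.1% for H3K4me1 and 7.46% for H3K27ac, and at 5 kb it was still 31.1% and 17.6%. Around the 50110 peaks with scores below the list median (the lower-scoring peaks), the summed counts had more 5mC on H3K27ac. It was 36% against 34.0% at the center and 58.0% against 48.0% at 1 kb. Peaks between these sets were not profiled apart. Lone H3K27ac peaks were highly methylated throughout, with 60.4% at the center, 67.3% at 1 kb and 58.9% at 5 kb on H3K27ac and 59.4, 62.2 and 51.9% on H3K4me1.

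The counts followed other courses. At the highest-scoring peaks the H3K27ac count fell from 37.9 CpG counts per bin at the center to 29.5 at 1 kb and 11.8 at 5 kb. H3K4me1 was level across the center, with 27.3 counts per bin at the center and 28.1 at 1 kb, before it fell to 16.9 at 5 kb. At the lower-scoring peaks both marks were highest at the center, with 19.2 counts per bin for H3K4me1 and 8.80 for H3K27ac, and fell to 7.64 and 2.06 at 1 kb.

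**Figure D3:**
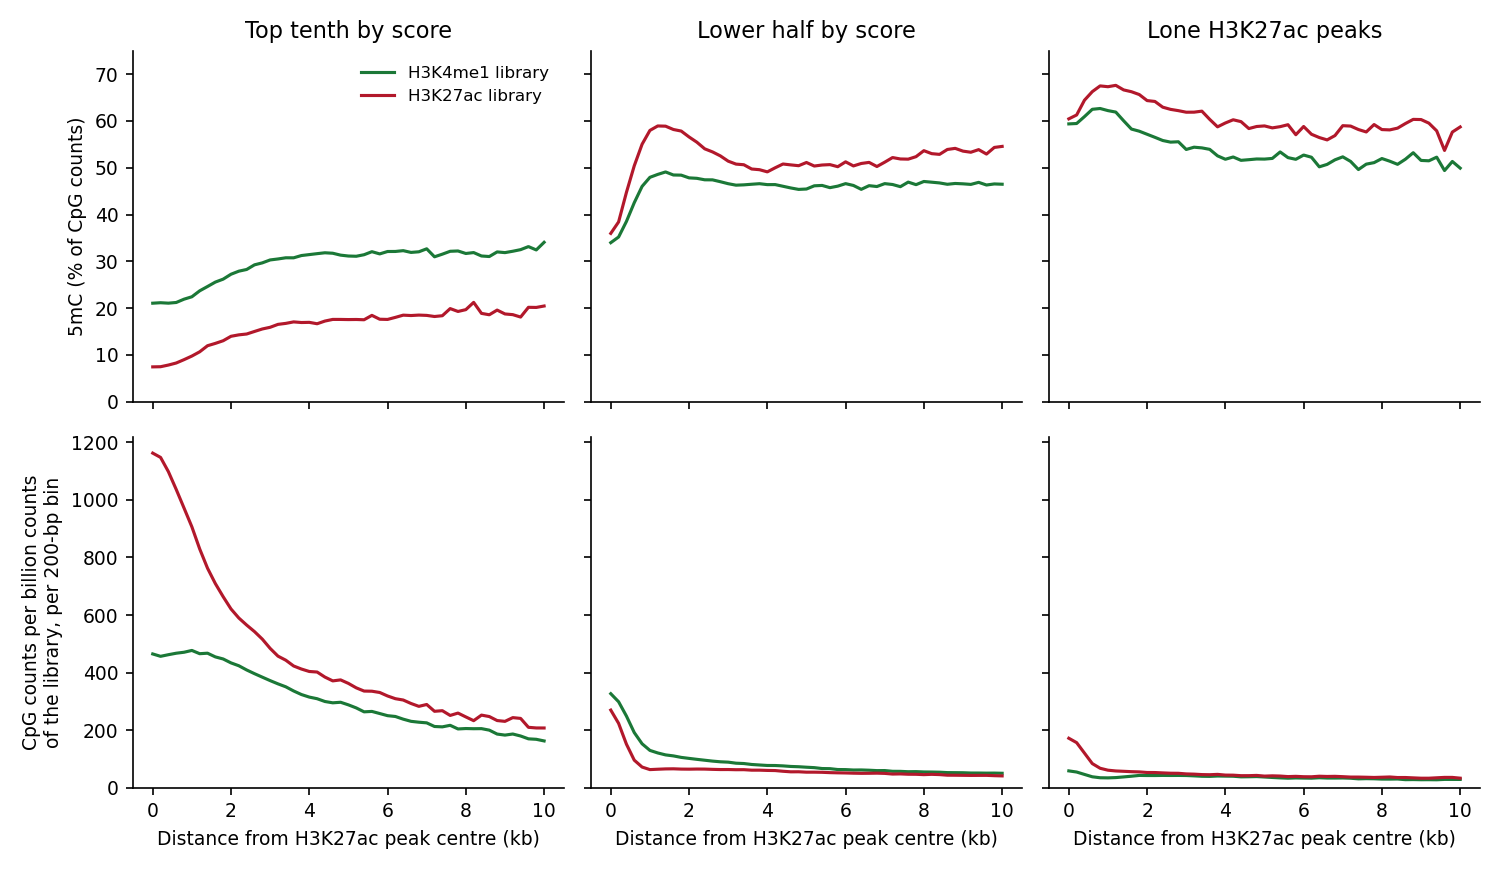
5mC (top) and CpG counts per 200-bp bin scaled to the library total (bottom) by distance (kb) from the center of the nearest H3K27ac peak. The sets are the top decile by score, the peaks with scores below the median (lower-scoring) and lone H3K27ac peaks. Green lines are the H3K4me1 and red lines the H3K27ac library. At the center the marks had 21.1 and 7.46% 5mC in the first set, 34.0 and 36% in the second and 59.4 and 60.4% in the third.

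Within the same bin the marks lay close together at these distances. Bins with at least 30 counts on both marks (7190 at the center, 5118 at 1 kb and 723 at 5 kb) had a mean 5mC of 15.2% on H3K4me1 and 14.3% on H3K27ac at the center, of 13.9% and 12.7% at 1 kb, and of 15.1% and 14.5% at 5 kb. Their mean difference was 0.833, 1.20 and 0.564 points, against differences of 10.5, 9.80 and 6.18 points for the summed counts. In such bins the highest-scoring and lower-scoring peaks did not have opposite signs at the center. Their mean differences there were 1.31 points (1738 bins) and 0.128 points (1844 bins). At 1 kb from the lower-scoring peaks the difference was -0.833 points in 63 bins. At the center of lone H3K27ac peaks it was -0.114 points in 40 bins. The summed counts include bins of all depths and weight each by the depth of the mark itself, so these values differ both in the bins kept and in their weights.

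The weights alone were then made equal for both marks, by class of bin. In bins of peaks of both marks with a count on each, H3K4me1 had 30.1% and H3K27ac 21.2% with their own counts as weights, a difference of 8.95 points. With the H3K27ac counts as weights for both, H3K4me1 had 21.3%, which is 0.126 points above H3K27ac. With the H3K4me1 counts as weights, H3K27ac had 30.6% and the difference (H3K4me1 minus H3K27ac) was -0.46 points. In H3K27ac-only bins a difference of 31.5 points came to 1.91 points with the H3K27ac weights and to -2.22 points with the H3K4me1 weights. In H3K4me1-only bins the difference was -5.84 points with own weights, -2.39 points with the H3K27ac weights and -2.17 points with the H3K4me1 weights, so there H3K27ac was higher under each of the weights. After retinoic acid, bins of peaks of both marks differed by 19.1 points with own weights and by 2.99 points with the H3K27ac weights, with H3K4me1 higher under both.

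Among bins deep in both marks, those with more H3K27ac for their H3K4me1 were less methylated on both. Shared bins were those in peaks of both marks with 30 or more CpG counts on each mark, and the 92470 such bins were divided into 10 equal groups by the ratio of H3K27ac to H3K4me1 counts, each scaled to the total of its library. In the decile with the lowest ratio (median log2 ratio -0.81) the median 5mC was 17.5% on H3K4me1 and 15.9% on H3K27ac. In the fifth it was 11.7% and 9.68%, and in the decile with the highest ratio (median log2 ratio 2.22) it was 0% and 0.926%. The medians of both marks fell at each step of the ratio. In summed counts the decrease from the lowest to the highest decile was 16.3 points for H3K4me1 and 17.2 points for H3K27ac.

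The marks stayed close to each other in every decile. In summed counts H3K4me1 was higher by 0.416 points in the lowest decile and by at most 1.47 points, in the ninth. In bins of either peak with at least 60 summed counts the direction turned in the lower deciles, with differences from -0.979 points in the first to -0.196 points in the fifth, and neither median fell over the first 3 deciles (26.9, 28.3 and 28.6% on H3K4me1, 25, 27.3 and 27.3% on H3K27ac). Among the shared bins, those with H3K27ac higher by over 20 points numbered 148 in the lowest decile and 2 in the highest. Those with H3K4me1 higher numbered 116 and 69. The ratio shares its counts with both percentages, and a bin near the minimum of 30 counts on either mark has a coarse percentage. Depth also changed along the ratio, from a median of 118 to 41 counts on H3K4me1 and from 35 to 120 on H3K27ac between the lowest and the highest decile, and its part in these medians was not tested.

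**Figure D4:**
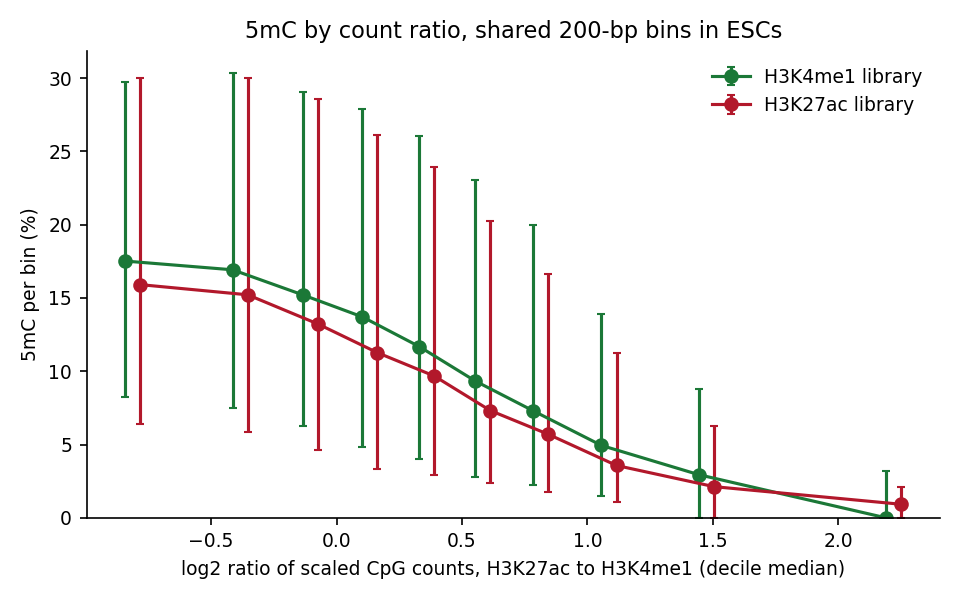
Median 5mC per shared bin on H3K4me1 (green) and H3K27ac (red) in deciles of the log2 ratio of scaled CpG counts, H3K27ac to H3K4me1. Bars are quartiles over bins, with 9247 bins per decile, and points are offset sideways by a small amount for sight. The medians fell from 17.5 and 15.9% in the lowest decile to 0 and 0.926% in the highest.

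Among bins with at least 100 counts on both marks, those with the highest ratio were chr17:39981601-39981800, chr17:39982401-39982600 and chr13:23622401-23622600, with log2 ratios of 2.93, 2.72 and 2.70. Their 5mC was 1.72, 1.47 and 0.962% on H3K4me1 and 1.43, 1.21 and 0% on H3K27ac. The lowest ratios were -0.96 in chr3:96137201-96137400, -0.61 in chr12:85543001-85543200 and -0.58 in chr2:165899601-165899800. There the marks had 6.01 and 3.85%, 5.65 and 4.85%, and 13.2 and 13.9%. In none of these 6 bins did Fisher's exact test separate the marks (adjusted p = 1 in each).

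Few shared bins passed a test of the difference between the marks at this depth, with a median of 65 counts on H3K4me1 and 47 on H3K27ac. Fisher's exact test on the methylated and unmethylated counts, with Benjamini-Hochberg adjustment over all 92470 bins, called 64 bins with higher 5mC on H3K4me1 (0.0692%) and 9 with higher 5mC on H3K27ac (0.00973%) at an adjusted p under 0.05. At an unadjusted p under 0.05 there were 4976 bins (5.38%). The test compares these 2 libraries and not the marks as replicated conditions. CpGs of the same read are not independent, since reads with mixed states were removed before counting, so these p-values can be too small. The size of this effect was not tested. The mean difference over all shared bins was 1.05 points (SD over bins 7.26), with H3K4me1 higher.

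The study calls a distal enhancer bin differentially methylated (DME) by its difference between the marks, without a test. Here bins near transcription start sites were kept, so DME means any shared bin with a difference over 20 points, and the counts are not those of the study's definition. There were 1257 DMEs with H3K4me1 higher and 950 with H3K27ac higher, in all 2.39% of the shared bins. The majority direction was not fixed. With a minimum of 20 counts the numbers were 4110 and 4602, and with a minimum of 60 counts they were 85 and 20. As a share of the bins tested, DMEs with H3K4me1 higher went from 2.33% to 0.466% and those with H3K27ac higher from 2.61% to 0.110%. DMEs were not concentrated at peak centers, since the share with H3K4me1 higher was 1.42% within 200 bp of an H3K27ac peak center and 1.20% beyond 5 kb.

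The difference also changed sign with the level of 5mC. Where the average of the marks was under 5%, in 37291 bins, H3K4me1 was higher by 0.522 points. At 10 to 20% it was higher by 2.55 points, with 26 of the 64 called bins and 230 of the DMEs with H3K4me1 higher. At 20 to 40% it was higher by 1.5 points, with 27 of the called bins and 703 of the DMEs. At 40 to 60% the difference (H3K4me1 minus H3K27ac) was -1.46 points, and in the 1511 bins at 60 to 80% it was -3.49 points.

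The only replicates of one label were the XEN libraries, and they served as a yardstick for the ESC marks. The measure was the mean squared difference between libraries over the squared binomial error, which is 1 when only independent counting separates them. It was 1.35 for the ESC marks. In bins of ESC peaks of both marks with at least 30 counts in both XEN replicates it was 1.26 for the replicates labelled H3K4me1 (22123 bins) and 1.31 for those labelled H3K27ac (88409 bins). Fisher's exact test called 2 bins (0.00904%) between the former and 10 bins (0.0113%) between the latter. The share of bins over 20 points was 2.34% and 4.29% between XEN replicates, against 2.39% between the ESC marks, each over its own bins.

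On the same bins the share over 20 points was lower for the ESC marks than for the replicates of either label, while the order of the other measures was not constant. In the 8379 bins also covered by the XEN replicates labelled H3K4me1, the measure was 1.46 for the ESC marks and 1.33 for the replicates, with 18 and 1 bins called and 1.19% and 3.09% of bins over 20 points. In the 25694 bins also covered by those labelled H3K27ac it was 1.28 for the ESC marks and 1.40 for the replicates, with 9 and 24 bins called and 1.26% and 3.95% over 20 points. Over each pair's own bins, the mean difference between the ESC marks was 1.05 points. Between replicates it was -0.285 points for the label H3K4me1 and 0.146 points for the label H3K27ac. In the 8379 bins the ESC marks differed by 0.780 points and the replicates by -0.337 points. In the 25694 bins the values were 0.979 and 0.0612 points. The ESC difference was thus farther from 0 in each comparison. On the same bins mean 5mC was higher in XEN, with 22.7 and 23.1% in the replicates labelled H3K4me1 against 8.57 and 7.79% on the ESC marks, and with 47.2 and 47.1% in those labelled H3K27ac against 11% and 10.0%, and the part of level in this comparison was not tested.

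The same measures were larger after retinoic acid, apart from bins over 20 points with H3K27ac higher (576 against 950 in ESCs). With H3K4me1 higher there were 4429 against 1257. Over its own 95406 shared bins the marks had means of 35.8% on H3K4me1 and 31.9% on H3K27ac, a difference of 3.90 points, and the measure was 1.79. There 764 bins (0.801%) were called with H3K4me1 higher and 12 (0.0126%) with H3K27ac higher. The difference between ESCs and retinoic acid was not tested, as each had 1 library per mark.

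**Figure D5:**
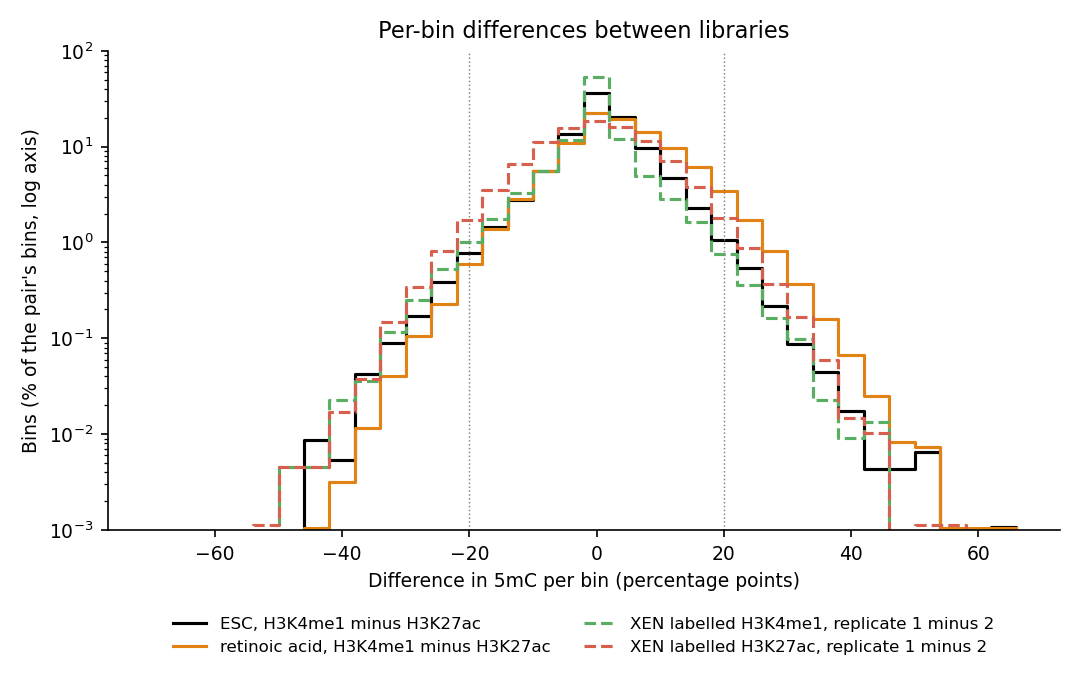
Share of bins, on a log axis, by the difference in 5mC per bin in percentage points, for the marks in ESCs (black), the marks after retinoic acid (orange) and replicate XEN libraries of each label (dashed). Dotted lines mark 20 points. Over 20 points to either side lay 2.39% of bins for the ESC marks, 2.34 and 4.29% for the XEN replicates and 5.25% for the marks after retinoic acid, whose curve was shifted toward higher H3K4me1.

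The called bins with H3K4me1 higher had little 5mC on H3K27ac, which the call itself favours, and a high count of H3K27ac. The 64 bins had a median of 32.4% 5mC on H3K4me1 and 4.18% on H3K27ac, and a median log2 count ratio of 1.36, against 0.47 over all shared bins. Their depth was 70 H3K4me1 and 101 H3K27ac counts in the median, and deeper bins pass a test on counts more readily. The 9 bins with H3K27ac higher had medians of 11.7% and 50.0% and a log2 ratio of -0.07. Among the 64 bins, 2 pairs were direct neighbours on the genome, and among all 92470 shared bins there were 31061 such pairs. Whether the called bins cluster was not tested.

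Libraries of retinoic acid treated cells gave these bins a second reading. Of the 64 bins, 39 had at least 10 counts on both marks there, and H3K4me1 was higher in 28 of them (71.8%), with a median difference of 15.9 points. Over all shared bins with that depth, H3K4me1 was higher in 60.2%, with a median difference of 2.27 points. Of the 9 bins with H3K27ac higher, 5 could be read and 3 had the same direction. For DMEs chosen without the test the second reading was weaker, with a median of 4.70 points for the bins with H3K4me1 higher and of 0.585 points, in the opposite direction, for those with H3K27ac higher.

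The single bins named next had the largest called differences among bins with at least 60 counts on both marks. Over all 64 called bins with H3K4me1 higher, the difference had a median of 27.2 points and ranged from 6.94 to 62.6 points. In chr19:8963601-8963800, 52.4% of 63 H3K4me1 counts (39.4 to 65.1%) and 0.274% of 365 H3K27ac counts (0.00694 to 1.52%) were methylated, with an adjusted p of 1.12e-25 by Fisher's exact test. After retinoic acid the bin had 0% of 21 and 1.16% of 345 counts, so the difference was not seen there. In chr3:120910001-120910200 the marks had 40.6% of 69 (28.9 to 53.1%) and 1.56% of 257 counts (0.426 to 3.94%), with an adjusted p of 4.5e-13. That bin kept its direction after retinoic acid, with 70.2% of 57 and 45.5% of 22 counts.

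The other 4 bins named for the largest difference with H3K4me1 higher had smaller contrasts. In chr15:38388201-38388400 the marks had 51.7% of 89 and 15.1% of 73 counts, and in chr16:31325201-31325400 they had 41.1% of 95 and 7% of 100 counts. In chr10:127606401-127606600 they had 64.3% of 98 and 30.8% of 65 counts, and in chr2:156684601-156684800 they had 48.5% of 101 and 18% of 89 counts. Their adjusted p-values by Fisher's exact test lay between 0.000146 and 0.0423. After retinoic acid H3K4me1 was higher in 3 of the 4 bins, with no more than 41 counts in any library. The chr16 and chr2 bins had only 9 counts on 1 mark there, under the minimum of 10 used above. Of the bins that reached it, H3K4me1 was higher in the chr10 bin and H3K27ac in the chr15 bin.

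Of the 9 bins called with H3K27ac higher over all shared bins, 2 had that depth. In chr6:4943801-4944000, 38.6% of 88 H3K4me1 counts (28.4 to 49.6%) and 74.6% of 67 H3K27ac counts (62.5 to 84.5%) were methylated (adjusted p = 0.0194, Fisher's exact test). In chr11:19921001-19921200 the marks had 5.93% of 118 (2.42 to 11.8%) and 33.8% of 68 counts (22.8 to 46.3%, adjusted p = 0.00655, Fisher's exact test). Neither had more 5mC on H3K27ac after retinoic acid, with 78.0% of 50 and 69.2% of 26 counts in the first and 32.3% of 31 and 29.4% of 17 in the second.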

How the data were processed

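The deposited count files give, for each 200-bp bin, how many CpGs were read as methylated and as unmethylated. The authors made these raw counts with Bismark and Bowtie (build mm9, per the submitters' processing notes), leaving out reads whose CpGs differed in state. Whether a file pools repeats of an experiment was not established. The peak lists deposited by the authors came from HOMER, with a score per peak and a width in bp. Which column held methylated counts was judged from mitochondrial DNA, and bins under 4 counts are missing from the XEN files.

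5mC was methylated over all CpG counts. A bin belonged to a peak at an overlap of at least 1 bp. Ratios were scaled to library totals, with 0.5 added to each count where a count could be 0. Per bin, 2 libraries were compared by Fisher's exact test (Benjamini-Hochberg adjustment over all bins tested), which was tested on simulated data. Named bins had at least 60 counts on both marks, a difference over 20 points and an adjusted p under 0.05 (the 6 largest per direction), or at least 100 counts and the 3 highest or lowest ratios, and named peaks were the 3 with the highest scores per class. The members and lists were chosen with earlier results of these data known. Bins near TSSs stayed in, and input, H3K36me and single-cell data were not used here. Alternatives were other overlaps, coverage minimums, peak sets, bin sets and thresholds. Tests ran in scipy 1.17.1 and tables in pandas 2.3.3 with numpy 2.4.6, under Python 3.11.15, and plots in matplotlib 3.10.9.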

Additional observations from a re-analysis of the deposited data

Results flagged for a closer look

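In 5 classes of bins, some of which contain others, the difference between the marks (H3K4me1 minus H3K27ac, in percentage points of summed counts) had opposite signs in ESCs and after retinoic acid. It went from -5.41 to 0.594 in all H3K4me1-only bins, from -6.61 to 0.644 in those of H3K4me1 peaks that overlap H3K27ac, from -4.72 to 0.678 in those of lone H3K4me1 peaks, from -2.75 to 1.97 in bins of lone H3K27ac peaks and from -3.71 to 3.34 in bins outside all peaks. These sums weight each mark by its own depth. With the H3K27ac counts as weights for both marks, the difference in H3K4me1-only bins was -2.39 in ESCs and 3.59 after retinoic acid. With the H3K4me1 counts it was -2.17 and 2.82. Outside all peaks the values were -3.17 and 4.98, and -3.08 and 4.82, in the same order. With 1 library per mark and cell state, these differences between the cell states were not tested. DNA outside peaks moved by amounts similar to those of the peak classes.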

How the results depend on the processing

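Differences are H3K4me1 minus H3K27ac in points. Counting only bins with at least 30 CpG counts in the library reversed the difference in H3K4me1-only bins, to 24.5, and outside peaks, to 32.8, a setting that keeps different bins for each library. It moved the difference in bins of both marks to 18.7 and in H3K27ac-only bins to 15.6, and the mean of such bins by distance gave 16.2 at the center, 21.4 at 1 kb and 21.8 at 5 kb. Bins wholly inside peaks gave 7.69 (both marks), -4.95 (H3K4me1 only), 28.4 (H3K27ac only) and -3.55 (neither), and autosomes 9.51 (both marks) and 36.2 (H3K27ac only). Around H3K27ac peaks that overlap H3K4me1 the differences were 12.0, 11.1 and 7.45 at 0, 1 and 5 kb, and around the 22242 with no other center within 10 kb they were 9.37, 8.29 and 6.67. An overlap of at least 50% of the smaller peak left 45.4% of H3K4me1 and 81.0% of H3K27ac peaks overlapping, with median widths of 3115 and 1507 bp (H3K4me1, overlapping and lone) and 1874 and 1252 bp (H3K27ac). Among the higher-scoring 72990 H3K4me1 and 50359 H3K27ac peaks 54.4% and 87.2% overlapped. The decrease in 5mC from the lowest to the highest ratio decile was 21.1 points for H3K4me1 and 24.2 for H3K27ac with at least 10 counts, 10.4 and 10.7 with at least 60, and 24.9 and 27.5 in bins of either peak. Called bins with H3K27ac higher were 4 with at least 60 counts, and the other called counts stayed within 1.5 times. DMEs with H3K4me1 higher were 4110, 85 and 151, and those with H3K27ac higher 4602, 20 and 134, with at least 20 counts, at least 60 counts and a difference over 30 points. The majority of DMEs thus turned to H3K27ac with at least 20 counts. Of 49 alternatives, 38 moved a value beyond its interval or, for counts, beyond 1.5 times, and 2 reversed a sign. Shares, widths and counts could not reverse a sign. Weights equal for both marks, which turned signs above, were not among the 49. No paired analysis was possible because each mark had 1 library in ESCs. The depth of H3K27ac limits the per-bin comparison.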

Other observations

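Gaps between H3K4me1 peaks inside an H3K27ac peak were found in retinoic acid treated cells too, in 9810 peaks with a median length of 722 bp. They held 10.5% of the H3K27ac counts of that library in 7.55 Mb, with 3.27% 5mC on H3K27ac (3.25 to 3.28%) and 25.2% on H3K4me1 (25.0 to 25.4%). With H3K27ac counts as weights for both marks, over bins with counts on each, these gaps had 7.19% on H3K4me1 and 3.85% on H3K27ac. The reverse arrangement, an H3K4me1 peak with a gap between H3K27ac peaks, occurred in 14505 H3K4me1 peaks of ESCs, with a median gap of 1447 bp. These gaps had 44.6% 5mC on H3K4me1 and 50.7% on H3K27ac. At the H3K27ac weights they had 47.7% on H3K4me1 and 50.7% on H3K27ac.

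The X chromosome, of which this male line has a single copy, had 682 shared bins. H3K4me1 was higher there by 1.49 points in the mean over bins, against 0.856 to 1.36 points over the 19 autosomes, and 2.20% of its shared bins differed by over 20 points, against 2.07 to 3.07%. Its peaks overlapped less often from the side of H3K4me1 (42.0%, autosomes 46.3 to 52.1%) and more often from the side of H3K27ac (89.7%, autosomes 81.0 to 86.9%). These are values of 1 chromosome in 1 library per mark and were not tested.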
